A study of Mus musculus with 17 samples.

Results

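The mitochondrial ribosomal protein genes of mouse pancreatic islets were followed across 6 groups of mice that differ in *Pax4* and in diet. A gene belonged to the set if it codes for a protein and its symbol begins with Mrpl or Mrps and a number, with pseudogene symbols dropped. The rule found 78 genes, 49 named for the large subunit (Mrpl) and 29 for the small subunit (Mrps), among 78239 gene identifiers in the first table of counts and 73212 in the second. All 78 passed the filter on low counts in both tables, where 19137 and 20167 genes were tested.

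Mitochondria keep ribosomes of their own, which translate the few mRNAs of the mitochondrial genome into core subunits of the respiratory chain and ATP synthase. The RNAs of these ribosomes are made inside the organelle, while their proteins are encoded in the nucleus, translated in the cytosol and imported. Some of the proteins descend from bacterial ribosomal proteins, and others were added in the mitochondrial lineage. In β cells, oxidative phosphorylation couples glucose metabolism to insulin secretion, so the machinery that builds the respiratory chain is of interest where islets meet a high-fat diet (HFD).

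All islets came from male mice and were profiled by bulk RNA-seq of total RNA as 17 samples. The labels call the samples of a group biological replicates and do not say whether each came from 1 animal, so the spread given is that between samples. The first table holds wildtype mice and mice homozygous for a *Pax4* knock-in that corresponds to human R192H (*Pax4* R192H), on a C57BL6/N background, with 3 samples per group. One group of each genotype was on standard chow diet (SCD) at 12 weeks of age, and the other was 16 weeks old after 4 weeks of HFD, so diet and age changed together and cannot be told apart. The second table holds 20-week-old mice after 8 weeks of HFD: 3 samples from *Pax4* βiKO mice, with floxed *Pax4* and Pdx1-CreERT2, a tamoxifen-inducible Cre active in cells that express Pdx1, and 2 from control mice with floxed *Pax4* and no Cre. Both received tamoxifen between 7 and 9 weeks of age, and the presence of Cre cannot be told apart from the loss of *Pax4*. The tables were normalized and tested separately, so levels are compared only within a table.

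Total counts per sample ran from 24268157 to 42679645 (first table) and from 28618835 to 31887537 (second table). The genotypes could not be checked on *Pax4* mRNA, for which every sample of both tables had a value of 0. A count of 0 allows a share of up to 7.03e-06% to 1.24e-05%, depending on the sample (3 counts of the total). None of the 11 listed endocrine markers was at 0, and they summed to between 55204 and 126379 CPM (counts scaled to library size) in the first table. Markers of acinar cells, the enzyme-secreting cells around islets, were also present. Their sum was 15091 to 29767 CPM in 3 groups of the first table and 42992 to 113098 CPM in the remaining one, the HFD-fed *Pax4* R192H islets. Of the samples of the second table, 1 control and 1 βiKO sample, at 121081 and 95653 CPM, stood above the other 3, at 19198 to 27522 CPM. In the first table a pair of identifiers with no name in the annotation used here took 36.2% to 53.3% of all counts.

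The genes lie on 17 chromosomes. Their merged exons had a median length of 2394 bases, against 4476 bases for the 14158 tested protein-coding genes of the first table. For 23 of the 78 (29.5%), another protein-coding gene started within 1000 bases upstream in the opposite direction, as it did for 11.3% of the tested protein-coding genes. A single pair of members, *Mrps11* and *Mrpl46* on chromosome 7, lay head to head, with starts 412 bases apart and first bases that overlap. Opposite-strand coding genes overlapped 23 members, among them *Mrps34*, which lies wholly within *Mapk8ip3*, *Mrps18a* with *Rsph9* and *Mrps25* with *Nr2c2*, and the strand setting of the authors' counting is not given in the sources used here.

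Promoters were taken from RefSeq (GRCm38.p6), which gave at least 1 window, from 250 bases before to 50 after the start, for 69 of the 78 genes. Short motifs of factors known for nuclear genes of mitochondria were searched on both strands, and matches may overlap. The NRF1 core GCGCANGCG was found for 23.2% of the 69 genes and for 14.3% of the 10981 tested protein-coding genes with a promoter. The ETS/GABPA core CCGGAAG was found for 37.7% against 18.7%, and the YY1 core AAGATGGCG for 11.6% against 3.30%. The SP/KLF core GGGCGG was found for 49.3% against 67.1%, and the E-box CACGTG for 7.25% against 11.2%. The promoters of *Mrpl12*, *Mrps12* and *Mrpl34* are shown because, among members with a single listed promoter, these 3 had the highest log2 fold changes between diets in *Pax4* R192H islets. They are the windows chr11:120484387-120484686 (plus strand), chr7:28741772-28742071 (minus strand) and chr8:71464676-71464975 (plus strand), written 5′ to 3′ with every motif match in capitals.
*Mrpl12*: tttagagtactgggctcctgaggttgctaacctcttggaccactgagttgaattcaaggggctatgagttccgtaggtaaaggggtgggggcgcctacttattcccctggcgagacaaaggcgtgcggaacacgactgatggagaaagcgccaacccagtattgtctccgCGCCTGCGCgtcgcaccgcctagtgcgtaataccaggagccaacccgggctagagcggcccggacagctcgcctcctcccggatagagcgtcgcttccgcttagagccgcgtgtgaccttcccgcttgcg
*Mrps12*: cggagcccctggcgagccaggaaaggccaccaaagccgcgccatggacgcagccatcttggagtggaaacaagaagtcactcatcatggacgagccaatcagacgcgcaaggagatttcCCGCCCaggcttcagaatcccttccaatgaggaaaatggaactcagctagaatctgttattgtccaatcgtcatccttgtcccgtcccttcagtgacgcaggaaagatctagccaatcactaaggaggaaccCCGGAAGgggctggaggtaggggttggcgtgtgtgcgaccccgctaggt
*Mrpl34*: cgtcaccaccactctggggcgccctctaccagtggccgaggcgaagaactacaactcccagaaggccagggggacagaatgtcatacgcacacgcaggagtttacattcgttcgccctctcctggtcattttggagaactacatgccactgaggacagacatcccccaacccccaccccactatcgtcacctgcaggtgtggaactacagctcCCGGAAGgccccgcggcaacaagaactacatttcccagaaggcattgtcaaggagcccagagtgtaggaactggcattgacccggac
The *Mrpl12* window held 1 NRF1 match, read on the other strand, and the *Mrpl34* window 1 ETS/GABPA match. The *Mrps12* window held 1 ETS/GABPA match and 1 SP/KLF match, the latter read on the other strand.

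Levels within the set differed widely between genes. Per kilobase of merged exon, *Mrps21* (37.7 CPM per kb), *Mrps12* (29.2) and *Mrpl54* (23.9) had the highest mean levels in the first table, where the gene at rank 40, *Mrpl11*, had 4.46. The lowest were *Mrps10* (0.777), *Mrps35* (1.10) and *Mrpl15* (1.43). These 3 have gene models of 8079 to 8631 merged exon bases, which hold every annotated isoform, so their level per kilobase is a lower estimate. In the second table *Mrps21* was again at rank 1 and *Mrps10* at rank 78. The fewest counts in any library belonged to *Mrps6*, with 37.0 in the first table and 72.8 in the second.

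Summed over the 78 genes, the level after scaling with trimmed means of M values (TMM) was 1083, 871 and 910 CPM in the 3 SCD-fed wildtype samples and 992, 916 and 874 CPM in the 3 SCD-fed *Pax4* R192H samples. On HFD it was 905, 1213 and 1126 CPM in wildtype samples and 1189, 1353 and 1264 CPM in *Pax4* R192H samples. The HFD-fed *Pax4* R192H samples lay above all 3 SCD-fed *Pax4* R192H samples, while 1 HFD-fed wildtype sample lay within the range of the HFD-fed *Pax4* R192H samples. In the second table the sum was 1872 and 1988 CPM in control samples and 2149, 2080 and 2188 CPM in *Pax4* βiKO samples, which did not overlap. The ratio of group means was 1.17 for *Pax4* R192H over wildtype on HFD and 1.11 for *Pax4* βiKO over control. As a share of all deposited counts the first ratio turned to 0.906, with 0.0822% to 0.104% of counts in HFD-fed *Pax4* R192H samples and 0.100% to 0.108% in HFD-fed wildtype samples, while the second stayed at 1.12. The unnamed pair of identifiers took 49.2% to 53.3% of counts in the former and 43.7% to 49.8% in the latter. The part of this pair in the turn was not tested, and differences in the first table are given relative to the bulk of the tested genes.

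**Figure D1:**
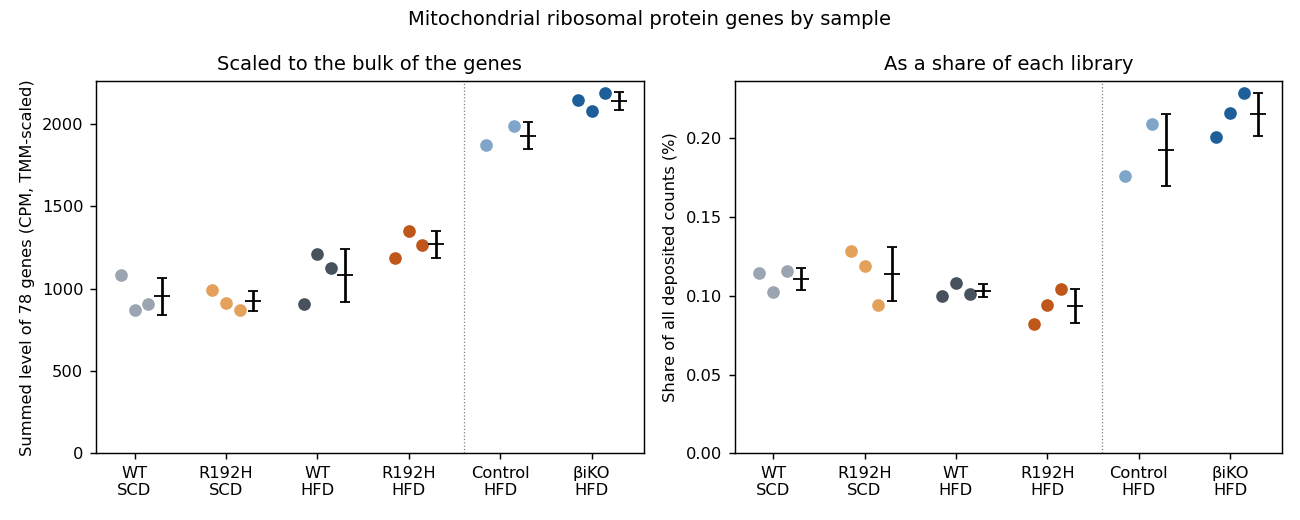
Summed level of the 78 mitochondrial ribosomal protein genes in each sample (points), with the group mean and SD (dash and bars); the left panel is in TMM-scaled CPM and the right panel in percent of all deposited counts, and the dotted line parts the tables. HFD-fed *Pax4* R192H samples are the highest of the first table on the left, at 1189 to 1353 CPM apart from 1 wildtype sample at 1213, but not on the right, at 0.0822% to 0.104%.

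Relative to the bulk of the tested genes (TMM scaling), members of the set were higher on HFD than on SCD in *Pax4* R192H islets, a direction that turned when library totals were used. Between SCD-fed samples at 12 weeks and HFD-fed samples at 16 weeks, 28 of the 78 genes (35.9%) rose and none fell in edgeR's quasi-likelihood test at a Benjamini-Hochberg adjusted p below 0.05. Over all tested genes 17.4% were called, 10.5% as higher. All 28 also passed a log2 fold limit of 0.5, as did 9.75% of all genes in the higher direction. The 28 had log2 fold changes of 0.50 to 1.62, or 1.42-fold to 3.07-fold. In all, 70 of the 78 had a positive log2 fold change, with a median of 0.46 beside -0.06 over all genes. For 55 genes (70.5%) every HFD-fed sample lay above every SCD-fed sample, as for 21.3% of all genes.

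The call rested on scaling and on which samples were kept. With library totals in place of TMM factors, a choice made after seeing the data, 21 members were called lower and none higher, with a median of -0.28 beside -0.79 over all genes, so that the members still lay above the median gene. On that scale *Mrpl12* (0.88) and *Mrps12* (0.53) kept positive values, and neither was called (adjusted p = 0.0539 and 0.0759, edgeR). With the mean level of acinar markers as a covariate, 0 of the 78 were called and the median was 0.60. That mean did not overlap between the groups, at 8.75 to 10.1 log2 CPM on HFD and 7.29 to 7.74 on SCD. The covariate therefore cannot be told apart from diet, and the loss of calls decides nothing about acinar cells. With offsets for length and GC content, 14 were called and the median was 0.45. Without 1 sample the count was 13 (without HFD-fed *Pax4* R192H sample 2), 15 (without SCD-fed *Pax4* R192H sample 3) or 17 (without HFD-fed *Pax4* R192H sample 3), and 21 to 27 without each of the other 3. The 24 tested acinar markers moved with diet in the same samples: 23 of them were called higher, with a median log2 fold change of 1.84. Of the 11 endocrine markers 5 were called higher, *Ins1* and *Ins2* among them, and none lower, while 4 had negative values. Duct markers summed to 274 to 284 CPM on SCD and 377 to 390 CPM on HFD, with 2 of 10 called higher and 1 lower. Stromal markers had 2 of 9 positive and a median of -0.90, with none called. Endothelial markers had 5 of 8 positive, with *Plvap* called higher, and macrophage and lymphoid markers 5 of 9, with *Ms4a1* called higher. The sums of these last 3 lists overlapped. In bulk islets, a change in the number of cells of a type and a change in RNA per cell cannot be told apart. The part of these cells in the members' result was not tested, since the acinar covariate cannot separate it from diet.

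The 28 called genes comprised 19 of the large subunit, *Mrpl2*, *Mrpl10*, *Mrpl11*, *Mrpl12*, *Mrpl14*, *Mrpl17*, *Mrpl18*, *Mrpl20*, *Mrpl28*, *Mrpl30*, *Mrpl34*, *Mrpl38*, *Mrpl43*, *Mrpl51*, *Mrpl52*, *Mrpl53*, *Mrpl54*, *Mrpl57* and *Mrpl58*, and 9 with small-subunit symbols, *Mrps7*, *Mrps11*, *Mrps12*, *Mrps18a*, *Mrps24*, *Mrps26*, *Mrps28*, *Mrps34* and *Mrps36*. In 12 of them the call remained in every fit that left out 1 sample. The median log2 fold change was 0.48 over the 49 Mrpl genes and 0.42 over the 29 Mrps genes. Members listed as bacterial homologues and members listed as particular to mitochondria were called in both subunits: 11 of 30 and 9 of 21 in the large subunit, and 5 of 16 and 3 of 11 in the small subunit, where the 3 include *Mrps36*, whose place in the ribosome is in doubt. Of all tested genes 10.5% were called higher, and the classes were not tested against each other.

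The called genes are described by their place on the ribosome. The stalk of the large subunit binds the translation factors that drive initiation and elongation. All 5 of its listed genes rose, beside 35.9% of the set and 10.5% of all tested genes called higher. The call was lost for *Mrpl54* (adjusted p = 0.260, edgeR) and *Mrpl11* (adjusted p = 0.112, edgeR) with length and GC offsets, and leaving out 1 sample kept it in 4 of 6 fits for *Mrpl10* and in 1 of 6 for *Mrpl11*. *Mrpl12* encodes the factor-binding stalk protein itself. Its level was 2.67, 2.79 and 2.33 CPM in SCD-fed and 5.47, 10.5 and 8.08 CPM in HFD-fed *Pax4* R192H samples, with no overlap, and 3.20, 3.19 and 5.46 and 2.77, 7.85 and 5.76 CPM in wildtype samples on the same diets, which overlapped. The fitted difference in *Pax4* R192H islets was the highest of the set (log2 fold change 1.62, SE 0.36, adjusted p = 0.00813), and in wildtype islets it was 0.46 (SE 0.35). *Mrpl53* had the lowest p of the set, with 8.03, 7.84 and 6.99 CPM on SCD and 14.2, 17.0 and 12.9 CPM on HFD (log2 fold change 0.94, SE 0.15, adjusted p = 0.00153). *Mrpl10*, which anchors the stalk, *Mrpl11*, at its base, and *Mrpl54* had log2 fold changes of 0.72, 0.50 and 0.69.

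At the exit of the peptide tunnel, where new chains leave for the inner membrane, 1 of 6 listed genes rose, a share near the 10.5% of all genes called higher. *Mrpl17* went from 15.1, 13.1 and 11.9 CPM to 23.5, 25.9 and 22.8 CPM (log2 fold change 0.85, SE 0.15, adjusted p = 0.00228). *Mrpl45*, which links the ribosome to the inner membrane, had 9.81, 8.19 and 7.98 CPM on SCD and 9.41, 10.5 and 10.3 CPM on HFD, ranges that overlapped (log2 fold change 0.21, SE 0.18, adjusted p = 0.431). On the central protuberance, the knob that faces the small subunit, 3 of 6 rose. They were *Mrpl58*, a peptidyl-tRNA hydrolase that can release chains from stalled ribosomes (12.6, 10.5 and 8.40 CPM against 18.3, 19.3 and 19.3 CPM; log2 fold change 0.85, SE 0.19, adjusted p = 0.00862), *Mrpl38* (0.82) and *Mrpl18* (0.60), of which *Mrpl38* was called in 4 and *Mrpl18* in 1 of the 6 fits that left out 1 sample, and neither with length and GC offsets.

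In the small subunit, *Mrps12* encodes a protein of the decoding centre and had the second highest level per kilobase in the first table. It had 22.3, 21.4 and 13.5 CPM on SCD and 43.2, 45.6 and 50.4 CPM on HFD in *Pax4* R192H samples (log2 fold change 1.28, SE 0.22, adjusted p = 0.00230). In wildtype samples it had 29.1, 22.5 and 21.1 CPM and 22.9, 41.2 and 31.6 CPM, and 1 HFD-fed sample lay within the SCD range (log2 fold change 0.40, SE 0.22). *Mrps34*, a protein found in mitochondrial ribosomes only, had 9.91, 10.97 and 4.20 CPM and 14.0, 18.6 and 18.3 CPM (log2 fold change 1.01, SE 0.29, adjusted p = 0.0284). One SCD-fed sample was far below the others, and without it *Mrps34* had a log2 fold change of 0.70 and was no longer called (adjusted p = 0.0551, edgeR). It was also not called without HFD-fed sample 2 (0.94, adjusted p = 0.0989, edgeR) or sample 3 (0.96, adjusted p = 0.0900, edgeR), nor with length and GC offsets (adjusted p = 0.0762, edgeR). Reads of *Mrps34* and of *Mapk8ip3*, which overlaps it, cannot be told apart if strand was not used.

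The S18 family has 3 members that occupy different sites, with *Mrps18c* and *Mrps18b* in the small subunit and *Mrps18a* in the large one despite its name. *Mrps18a* rose (11.8, 10.5 and 7.60 CPM against 14.2, 16.4 and 16.1 CPM; log2 fold change 0.64, SE 0.19, adjusted p = 0.0343), but was called in 1 of the 6 fits that left out 1 sample and not with length and GC offsets. *Mrps18b* had a log2 fold change of 0.53 (SE 0.23) and *Mrps18c* of 0.39 (SE 0.23), and neither was called. *Mrps36*, whose product has since been assigned to the 2-oxoglutarate dehydrogenase complex rather than to the ribosome, rose as well (log2 fold change 0.70, SE 0.21, adjusted p = 0.0339) and was called in 2 of those 6 fits.

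Other members with defined roles were not called between diets in *Pax4* R192H islets. *Mrpl3*, *Mrpl44*, *Mrps16* and *Mrps22*, genes in which variants cause combined respiratory chain deficiency in people, had log2 fold changes of 0.11, 0.21, 0.46 and -0.063, with adjusted p of 0.631, 0.374, 0.0683 and 0.840. *Mrps27*, which carries an RNA-binding repeat domain, had 0.45, *Mrpl41* 0.40, and *Mrps30*, a large-subunit protein despite its symbol, 0.26. The lowest log2 fold changes of the set belonged to *Mrps25*, *Mrps9* and *Mrpl1*. *Mrps25* had 19.3, 19.1 and 17.0 CPM on SCD and 14.4, 15.7 and 13.8 CPM on HFD, the only member with all HFD-fed samples below all SCD-fed samples (log2 fold change -0.34, SE 0.14, adjusted p = 0.115). *Mrps9* (log2 fold change -0.16, SE 0.15, adjusted p = 0.512) and *Mrpl1*, a protein of the mobile L1 stalk (log2 fold change -0.13, SE 0.18, adjusted p = 0.652), had overlapping groups, and both values were positive with length and GC offsets.

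**Figure D2:**
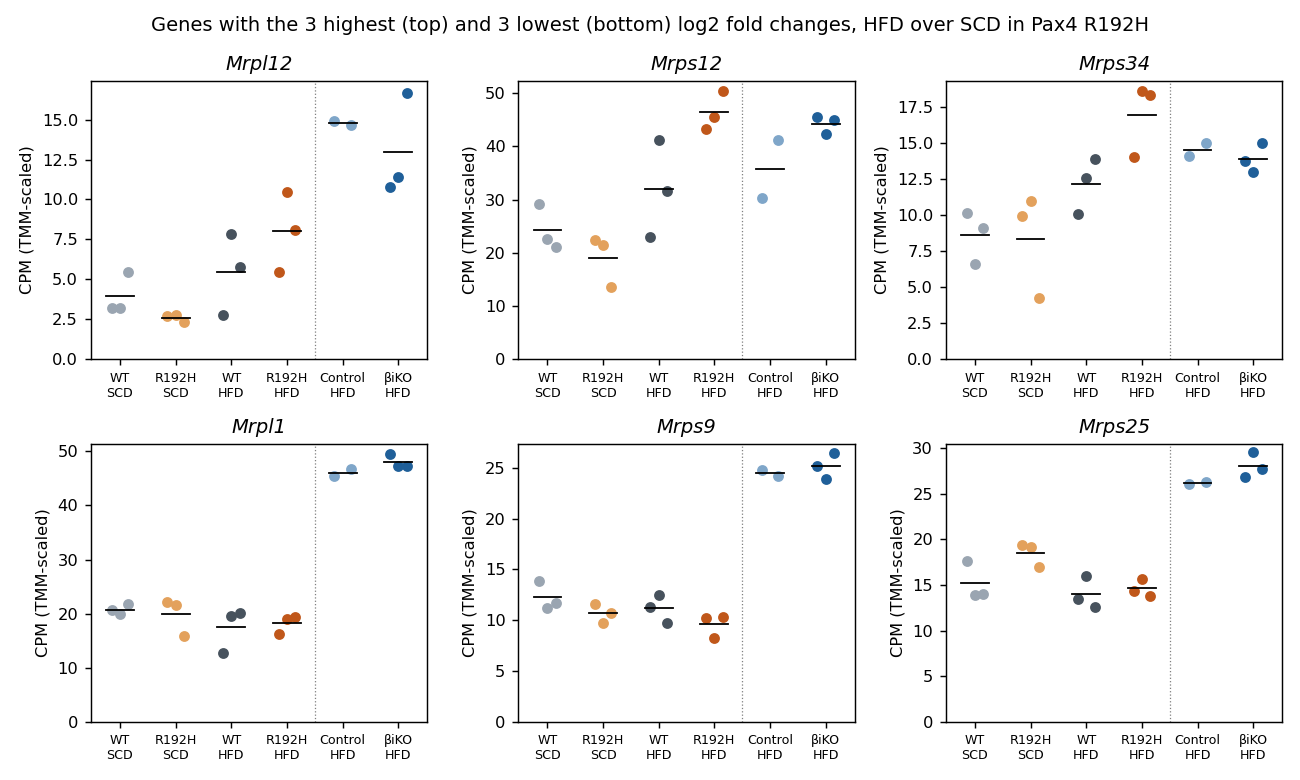
Level of 6 genes in each sample (points, TMM-scaled CPM) with group means (lines), for the genes with the 3 highest (top row) and 3 lowest (bottom row) log2 fold changes between diets in *Pax4* R192H islets; the dotted line parts the tables. *Mrpl12*, *Mrps12* and *Mrps34* are higher in every HFD-fed than SCD-fed *Pax4* R192H sample, and *Mrps25* is lower in every one.

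In wildtype islets, where the direction also turned with library totals (median -0.077 beside -0.26 over all genes), the same comparison of diets called none of the 78 genes, and 0.371% of all genes. At an unadjusted p below 0.05, 7 members (8.97%) were higher and none lower, beside 6.86% of all genes higher. The median log2 fold change was 0.20, with 65 of 78 positive, beside 0.01 over all genes. It was 0.11 without HFD-fed wildtype sample 2, 0.31 without HFD-fed wildtype sample 1, and 0.34 without SCD-fed wildtype sample 1. The highest were *Mrps34* (0.50, SE 0.29), *Mrpl28* (0.48, SE 0.14) and *Mrps26* (0.47, SE 0.18), and the lowest were *Mrps6* (-0.29, SE 0.29), *Mrpl42* (-0.28, SE 0.19) and *Mrpl1* (-0.25, SE 0.18), which turned to 0.22 with length and GC offsets. *Mrpl28* was at 16.6, 17.6 and 15.4 CPM on SCD and 20.9, 24.6 and 23.9 CPM on HFD in wildtype samples, without overlap, and its adjusted p was 0.131 in edgeR's test. The acinar markers had a median log2 fold change of 0.15 here, and none of 24 was called. Endocrine markers had sums without overlap, higher on HFD, and 9 of 11 positive, while stromal markers had 0 of 9 positive and a median of -1.74. Macrophage and lymphoid markers had 1 of 9 positive, a median of -0.85 and *Ptprc* called lower, and duct markers had 2 of 10 positive and a median of -0.59.

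**Figure D3:**
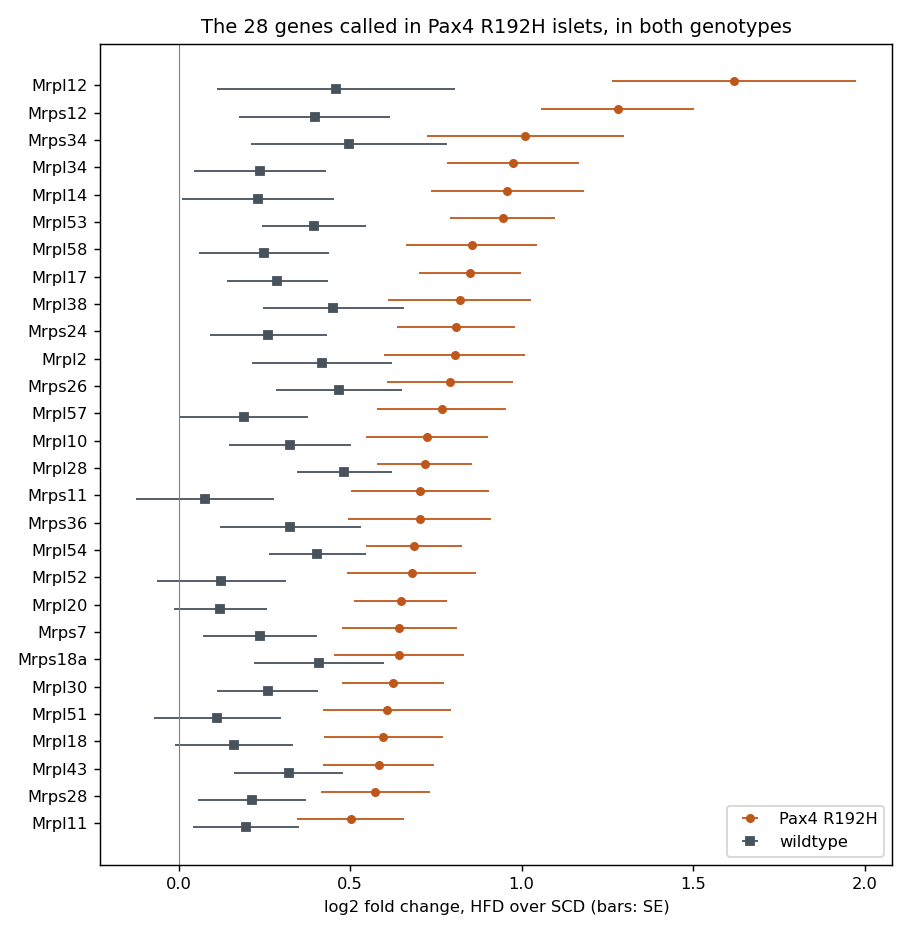
log2 fold change between HFD and SCD (points, with SE as bars) of the 28 genes called in *Pax4* R192H islets, in *Pax4* R192H (circles) and wildtype (squares) islets. In *Pax4* R192H islets the TMM-scaled values run from 0.50 to 1.62, and no gene was called in wildtype islets; with library totals 21 members were called in *Pax4* R192H islets, all lower.

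Whether the response to diet depended on genotype was tested with an interaction term. None of the 78 genes was called, beside 0.131% of all genes, so a difference between the genotypes in the diet response was not shown for any member. At an unadjusted p below 0.05, 11 members (14.1%) had a positive interaction and none a negative one, beside 6.84% of all genes that were positive. The median interaction was 0.28 on the log2 scale, with 68 of 78 positive, and it was 0.18 without HFD-fed wildtype sample 1. With library totals in place of TMM factors the median was -0.18, beside -0.47 over all genes. Marker lists moved the same way, with a positive interaction in 24 of 24 acinar (median 1.71), 9 of 9 stromal (0.92) and 9 of 9 macrophage and lymphoid markers (0.64), none of them called. The largest belonged to *Mrpl12* (log2 fold change 1.16, SE 0.49, adjusted p = 0.396) and *Mrps12* (log2 fold change 0.88, SE 0.31, adjusted p = 0.299). The comparisons within the first table share samples and are not independent of each other.

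The genotypes were then compared on each diet. On HFD none of the 78 genes was called between *Pax4* R192H and wildtype islets in edgeR's test, while 2.31% of all genes were. At an unadjusted p below 0.05, 15 members (19.2%) were higher and none lower, beside 8.91% of all genes that were higher. In all, 70 of 78 had a positive log2 fold change, with a median of 0.24 beside -0.01 over all genes. In 24 members (30.8%) every *Pax4* R192H sample lay above every wildtype sample, as in 13.0% of all genes. DESeq2 called 2 members, *Mrpl17* and *Mrpl54*, and 8.02% of the genes to which it gave an adjusted p. The median was 0.11 without HFD-fed wildtype sample 1, the sample of lowest summed level in its group, and 0.13 with length and GC offsets. With library totals in place of TMM factors it was -0.13, beside -0.40 over all genes. Acinar markers moved in the same direction, with 6 of 24 called higher and a median log2 fold change of 1.53. Duct markers summed to 377 to 390 CPM in *Pax4* R192H and 244 to 304 CPM in wildtype samples, with 8 of 10 positive, *Krt18* called and a median of 0.38. Endocrine markers summed to 112603 to 126379 CPM and 78185 to 105687 CPM, with 7 of 11 positive. Stromal markers had 9 of 9 positive and a median of 0.26, with sums that overlapped, while the sums of endothelial and of macrophage and lymphoid markers overlapped too. The part of these cells in the members' result was not tested. With the acinar covariate 0 members were called and the median was 0.33. Its values were 8.75 to 10.1 log2 CPM in *Pax4* R192H and 7.43 to 8.18 in wildtype samples, without overlap, so it cannot be told apart from genotype.

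*Mrpl14*, a protein at the interface of the subunits, had the highest value, with 3.15, 3.14 and 4.04 CPM in wildtype and 4.69, 7.30 and 5.09 CPM in *Pax4* R192H samples (log2 fold change 0.72, SE 0.22, adjusted p = 0.107). *Mrpl17* came closest to a call, with 14.6, 17.4 and 16.6 CPM and 23.5, 25.9 and 22.8 CPM (log2 fold change 0.57, SE 0.15, adjusted p = 0.0606), and its groups did not overlap. *Mrpl12* (0.56, SE 0.34), *Mrps12* (0.54, SE 0.22), *Mrpl52* (0.52, SE 0.19) and *Mrps34* (0.48, SE 0.28) followed. *Mrpl52* was at 5.31, 5.05 and 5.52 CPM and 8.98, 6.84 and 7.00 CPM. The groups of *Mrpl12* overlapped, and those of *Mrpl52* did not. The lowest values were those of *Mrps35* (-0.24, SE 0.17), *Mrps9* (-0.22, SE 0.15), *Mrps6* (-0.18, SE 0.29), *Mrpl44* (-0.076, SE 0.16), *Mrps33* (-0.068, SE 0.15) and *Mrpl3* (-0.047, SE 0.14), and none had an adjusted p under 0.536 (edgeR). With the acinar covariate *Mrps6* turned to 0.40 and *Mrpl3* to 0.27.

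On SCD none of the 78 genes was called between the genotypes, nor any gene at all (0% of those tested). No member had an unadjusted p below 0.05, beside 3.29% of all genes, and DESeq2 called no member. The median log2 fold change was -0.06, with 26 of 78 positive, and it was 0.04 without SCD-fed wildtype sample 1. The values ran from -0.61 to 0.37. *Mrpl12* had the lowest, at 3.20, 3.19 and 5.46 CPM in wildtype and 2.67, 2.79 and 2.33 CPM in *Pax4* R192H samples (SE 0.35). All 3 *Pax4* R192H samples thus lay below the 3 wildtype samples for this gene on SCD, and on HFD the groups overlapped. Macrophage and lymphoid markers (0 of 9 positive) and stromal markers (0 of 9) were also below 0 here, with medians of -0.61 and -0.60, and none was called.

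**Figure D4:**
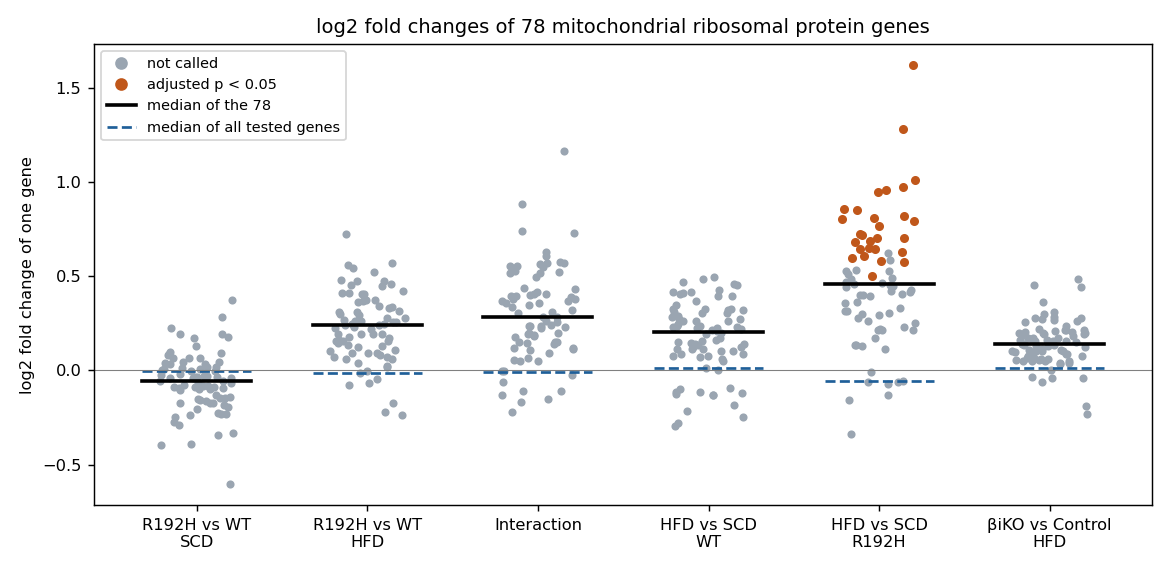
log2 fold change of each of the 78 genes (points, coloured where the adjusted p was below 0.05) in 6 comparisons, with the median of the 78 (solid line) and of all tested genes (dashed line). Only the diet comparison in *Pax4* R192H islets has called genes, 28 in number, and the median of the 78 lies below that of all genes only for the genotypes on SCD. With library totals in place of TMM the diet median in *Pax4* R192H islets is -0.28, which is still above that of all genes.

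In the second table none of the 78 genes was called between *Pax4* βiKO and control islets by edgeR or DESeq2, beside 0.0893% of all genes by edgeR. At an unadjusted p below 0.05, 11 members (14.1%) were higher and none lower, beside 6.23% of all genes higher. The median log2 fold change was 0.14, with 72 of 78 positive, beside 0.01 over all genes, and between 0.10 and 0.18 without any 1 sample. In 40 members (51.3%) the 3 βiKO samples lay above both control samples, as in 15.9% of all genes. On the TMM scale the differences were small beside those between diets in *Pax4* R192H islets, and no value exceeded 0.49, but no test compared the tables. The scale did not turn the direction here, since with library totals the median was 0.16. Acinar markers had a median log2 fold change of -0.68, with 1 of 24 above 0 and none called, and their summed level overlapped between the groups. Other marker lists moved with the members, with sums higher in all βiKO samples than in both controls: endothelial (8 of 8 positive, ratio of means 1.17), stromal (8 of 9, 297 to 417 CPM against 280 to 293 CPM), duct (5 of 10, ratio 1.24) and endocrine (8 of 11, ratio 1.09). Macrophage and lymphoid markers had 8 of 9 positive, with sums that overlapped. None of these markers was called, and the part of these cells in the members' values was not tested.

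The highest member was *Mrpl57*, a short protein of the large subunit, at 16.4 and 18.7 CPM in control and 25.0, 21.1 and 27.5 CPM in βiKO samples (log2 fold change 0.49, SE 0.14, adjusted p = 0.264). *Mrpl18*, which takes part in the central protuberance, had 14.3 and 15.8 CPM and 19.8, 18.6 and 23.6 CPM (log2 fold change 0.45, SE 0.13, adjusted p = 0.274). *Mrps18b* (0.44, SE 0.18), *Mrpl42* (0.36, SE 0.10), *Mrps12* (0.31, SE 0.13) and *Mrpl51* (0.30, SE 0.10) followed. With no filter on low counts, *Mrpl57*, *Mrpl18*, *Mrps18b* and *Mrpl42* passed the threshold. The lowest were *Mrpl37* at 15.8 and 15.1 CPM in control and 13.5, 13.5 and 12.5 CPM in βiKO samples (-0.23, SE 0.11), whose βiKO samples all lay below both controls, and *Mrpl12* at 14.9 and 14.7 CPM and 10.8, 11.4 and 16.7 CPM (-0.19, SE 0.19). *Mrps34* (-0.063), *Mrpl48* (-0.042), *Mrpl19* (-0.039) and *Mrpl46* (-0.036) lay within their SE of 0. *Mrpl12* overlapped between the groups, and *Mrps34* and *Mrpl12*, among the 3 highest members between diets in *Pax4* R192H islets, were among the 6 lowest here.

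The genes that work with mitochondrial ribosomes were counted in the same fits, with each list given beside the set. Between diets in *Pax4* R192H islets, 2 of the 5 mitoribosome proteins whose symbols fall outside the rule were called higher, *Gadd45gip1* (0.61, adjusted p = 0.0268) and *Aurkaip1* (0.54, adjusted p = 0.0121). *Chchd1* (0.51), *Dap3* (0.20) and *Ptcd3* (-0.23) were not. Of 16 translation factors 1 was higher and 2 were lower, of 28 assembly factors 3 and 1, of 20 mitochondrial tRNA synthetases 2 and 0, and of 16 genes of mitochondrial DNA expression 2 and 0, beside 17.4% of all genes called, with medians of 0.18, 0.21, 0.092 and 0.083. These counts lie near or below that share and are no result about the lists. *Rpusd4*, an rRNA pseudouridine synthase, was at 0.57 (adjusted p = 0.0438, edgeR) and *Hsd17b10*, a subunit of mitochondrial RNase P, at 0.59 (adjusted p = 0.0432, edgeR), while *Noa1* (0.055), *Nars2* (-0.43) and *Ssbp1* (0.13) were not called. *Lars2*, the mitochondrial leucyl-tRNA synthetase, had a fitted value of 6.53 (SE 1.91, adjusted p = 0.0323, edgeR), but its level was 500.4 ± 822 CPM (SD, n = 3) in HFD-fed and 5.48 ± 3.25 CPM in SCD-fed *Pax4* R192H samples and 113 ± 189 CPM in SCD-fed wildtype samples. With an SD above the mean in 2 groups this value is not read as a change of the gene, and whether its counts hold reads of another sequence was not tested. Of 32 genes of the import machinery 11 were higher, *Pam16* (0.81) and *Dnajc19* (0.63) among them, and none lower, with a median of 0.41. Among 14 regulators of mitochondrial biogenesis none was higher and 2 were lower, *Creb1* (-0.72) and *Gabpb2* (-0.62). This is below the 17.4% of all genes called in either direction, while 1314 of 19137 genes were called lower.

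Between diets in *Pax4* R192H islets cytoplasmic ribosomal proteins were called higher in 75 of 79 tested genes, with a median of 0.79. Nuclear-encoded subunits of oxidative phosphorylation were called higher in 55 of 76, with a median of 0.66, where the set had 28 of 78 and 0.46. Of all tested genes 10.5% were called higher. These values are on the TMM scale, and the direction of the set turned with library totals. On HFD between genotypes these families had 7 of 79 and 2 of 76 genes called higher, *Rplp0*, *Atp5g1* and *Ndufa1* among them, beside 2.31% of all genes called in either direction, so that the second count is near the general share. Their medians were 0.50 and 0.32, and that of the set 0.24. In βiKO against control islets the medians were 0.25, 0.20 and 0.14, and nothing in the 3 families was called. No test compared the families with one another. The summed level of the set was 0.255 to 0.263 of that of the nuclear respiratory subunits in SCD-fed and 0.233 to 0.242 in HFD-fed *Pax4* R192H samples, and 0.254 to 0.267 and 0.242 to 0.252 in wildtype samples, so it was lower in each HFD-fed than in each SCD-fed sample of the same genotype.

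The mRNAs that mitochondrial ribosomes translate are listed for comparison, as they are transcribed inside the organelle. Of the 12 mRNAs of the mitochondrial genome tested in the first table, 1 was called between diets in *Pax4* R192H islets, *mt-Nd3*, which was higher, and the median of the 12 was -0.12. Their summed level was 4190 to 4791 CPM on SCD and 3066 to 3562 CPM on HFD in *Pax4* R192H islets (ratio of means 0.746), and the ratio was 0.758 in wildtype islets, both without overlap. On HFD between genotypes none was called and the median was -0.12, with *mt-Co1* at -0.19 (SE 0.17) and *mt-Co2* at -0.98 (SE 1.08). In *Pax4* βiKO against control islets, 13 were tested, none was called and the median was -0.45, while their sums overlapped, with a ratio of means of 0.993. The mitochondrial rRNAs *mt-Rnr1* and *mt-Rnr2* had log2 fold changes of -0.22 and -0.43 between diets in *Pax4* R192H islets and were not called, in libraries of total RNA whose content of rRNA also depends on its removal. *Lrpprc*, which stabilizes mitochondrial mRNAs, was lower between diets in *Pax4* R192H islets (log2 fold change -0.69, SE 0.13, adjusted p = 0.00382) and between genotypes on HFD (log2 fold change -0.64, SE 0.13, adjusted p = 0.0257), and its partner *Slirp* had 0.32 and 0.45, neither called.

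**Figure D5:**
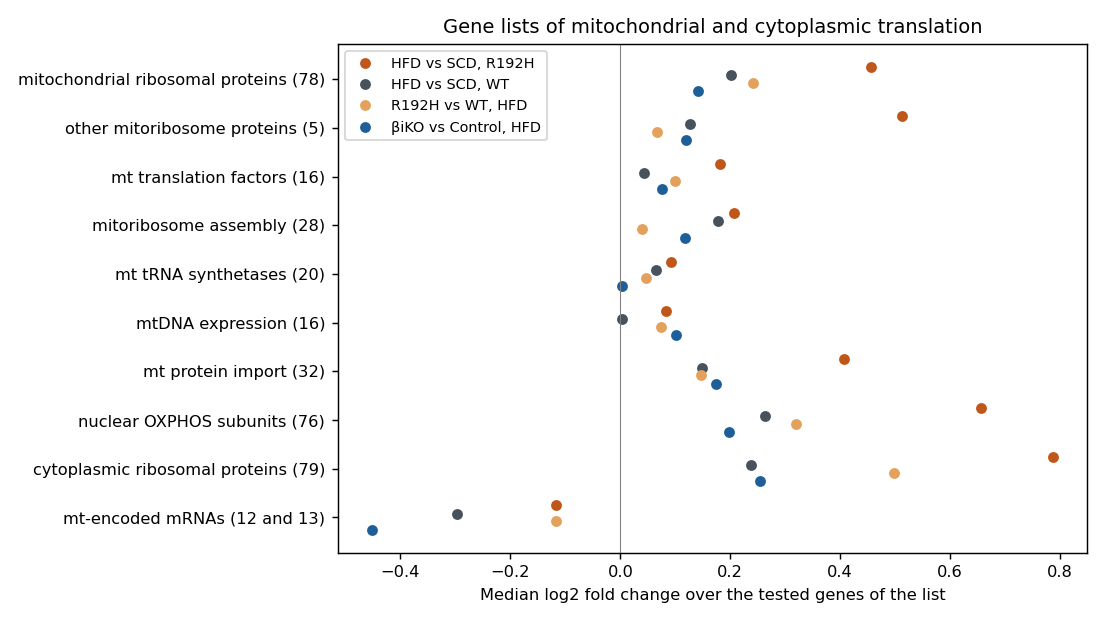
Median log2 fold change over the tested genes of 10 lists (number of tested genes in parentheses, with both tables given where they differ) in 4 comparisons. The 78 genes have medians of 0.46, 0.20, 0.24 and 0.14, on the TMM scale (-0.28, -0.077, -0.13 and 0.16 with library totals), below those of cytoplasmic ribosomal proteins and nuclear respiratory subunits in each comparison, and mitochondrial mRNAs are below 0 in all 4.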

How the data were processed

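The data are 2 tables of bulk islet RNA-seq covering 17 samples. The values deposited by the authors are expected counts per gene, obtained from stranded total RNA reads with STAR (v2.7.1; mm10) and RSEM (v1.3.3) and summed to genes with tximport. RSEM divides reads shared with pseudogenes or paralogs, so genes with such copies are less certain. Expected counts were rounded. Symbols, coordinates and merged exon lengths came from GENCODE M21 (GRCm38), which named 65.8% and 66.7% of identifiers and 90.7% and 89.5% of tested ones.

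Each table had its own edgeR model (v4.0.16, under R v4.3.3) with groups as coefficients: TMM factors, filterByExpr with a minimum count of 10 and the quasi-likelihood F-test, with Benjamini-Hochberg adjustment over all tested genes. A gene was called at an adjusted p below 0.05. SE is the absolute log2 fold change over the square root of F. CPM are TMM-scaled. DESeq2 v1.42.0 and other settings were alternatives. Scripts were tested on simulated data. The labels give no batch. The labels do not say whether a sample is 1 animal, and p-values measure only the spread between samples. With 2 to 3 samples per group, small differences may have been missed.

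The members and lists were chosen with earlier results of these data known. Genes were named by rule: members called in the genotype comparison on SCD, the interaction or βiKO, the 6 highest and 6 lowest log2 fold changes on HFD between genotypes and in βiKO, the 3 highest and lowest between diets in each genotype, members with set roles and the S18 family, and the 3 highest and lowest levels per kilobase. Outside the set, the rule took the 5 other mitoribosome proteins and the 2 genes of lowest p on HFD in each list. One gene that the rule took is not reported here. Members named outside this rule were named after their values were seen.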

Additional observations from a re-analysis of the deposited data

How the results depend on the processing

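The direction of the members' values in the first table depended on scaling, which shifts all genes of a sample alike. With library totals in place of TMM factors, chosen after seeing the data, the members called between diets in *Pax4* R192H islets were 21, all lower, in place of 28, all higher. The median log2 fold change was then -0.28 there, -0.13 between genotypes on HFD, -0.18 for the interaction and -0.077 between diets in wildtype islets. In each of these comparisons the median over all genes was lower still, so the members stayed above the median gene. The ratio of summed levels between genotypes on HFD was 0.906. The cause was not tested. Between diets in *Pax4* R192H islets 0 members were called with the acinar covariate, 14 with length and GC offsets, and 13 to 27 without 1 sample. The median stayed positive in the covariate and the offset fits. The covariate did not overlap between the diets there, so it cannot be told apart from diet. Between genotypes on HFD 2 were called with no filter on low counts, 2 with DESeq2 and 1 where each sample had to hold 10 counts or more, for the interaction 1 with no filter, and for βiKO 4 with no filter. The cause of these was not tested.

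Samples with the same number in different groups were checked for pairing. The correlation of their deviations from the group means ran from -0.30 to 0.19, and between 0 and 2 of 3 samples correlated best with their own number. In the second table the 2 controls give mirrored values (0.073 and -0.073 for βiKO sample 1). With 2 to 3 samples per group the check showed no pairing but cannot exclude it. With the replicate block 22 members were called between diets in *Pax4* R192H islets, and 8 with the block and length and GC offsets together, and the count stayed at 0 in the other 5 comparisons.

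Some single genes, none of which was called with TMM scaling and no covariate, turned sign. *Mrpl1* between diets in *Pax4* R192H islets was 0.12 with the acinar covariate, 0.28 with length and GC offsets and 0.27 with the block added, and in wildtype islets 0.22 and 0.20 with the latter 2. *Mrps9* between diets in *Pax4* R192H islets was 0.047 with length and GC offsets and 0.049 with the block added, and *Mrpl48* in βiKO was 0.012 with these offsets. Between genotypes on HFD, *Mrpl3* was 0.27 and *Mrps6* 0.40 with the acinar covariate. Without 1 sample, *Mrpl3* ran from -0.15 to 0.080, *Mrps6* from -0.39 to 0.064 and *Mrps33* from -0.18 to 0.0066 in that comparison, and *Mrpl19* ran from -0.13 to 0.058 and *Mrpl46* from -0.090 to 0.022 in βiKO.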
